A study of Bos taurus with 11 samples.

Results

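Genes that mark the basal layer of the mammary epithelium, together with the smooth-muscle-type contractile genes of its myoepithelial cells, were followed in mammary parenchyma of preweaned Holstein calves. A set of 9 genes was chosen by name: TP63, TRIM29, SFN and OXTR as basal epithelial members, and ACTA2, MYLK, CNN1, MYH11 and TAGLN as contractile members. A gene was read from a probe set annotated to it alone, and 8 of the 9 genes had 1 such probe set, among 18444 genes measured in this way. ACTA2, which encodes smooth muscle alpha-actin, shares its 1 probe set with ACTG2, so it has no value of its own here. The arrays came from 11 heifers. All calves were fed milk replacer of 28% protein and 15% fat. The 6 elevated calves took on average 8.4 L of milk replacer per day in 3 meals, a metabolisable energy intake of 5.9 ± 0.2 Mcal (SE). Their daily amount ran from 6 to 12 L. The 5 restricted calves took 4 L per day in 2 meals, for 2.8 ± 0.2 Mcal, so meal number cannot be told apart from supply. All calves had starter grain on offer from day 18 and were killed at 54 ± 2 days. Each group began with 6 calves, but the parenchyma of 1 restricted heifer had developed too little to be separated and sampled. The restricted group therefore lacks its least developed gland. The comparison asks how the milk replacer supply before weaning relates to transcript levels in the gland.

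The mammary epithelium has an inner luminal layer, which makes milk, and an outer basal layer against the basement membrane. Basal cells depend on the transcription factor p63, and as they mature into myoepithelium they take on contractile proteins otherwise typical of smooth muscle. Oxytocin from the pituitary binds its receptor on these cells, calcium rises, myosin light chain kinase switches on myosin, and the alveoli are squeezed so that milk is let down. In heifers before puberty the epithelium is a growing tree of ducts with no alveoli, and its basal cells are only partly differentiated. Blood vessel walls express the same contractile genes, so those genes do not mark one cell type in a piece of tissue.

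Values are the authors' RMA values on a log2 scale, on which a difference of 1 is a 2-fold difference in signal. Array medians lay between 6.368 and 6.455. Over the 26773 probe sets, 2 (0.00747%) differed between the diets at a limma adjusted p under 0.05, both lower in elevated calves. Calves restricted 2 and restricted 4 stood apart in their markers of adipocytes: the mean level of 19 adipocyte genes was 10.29 and 9.75 in them, against 7.24 to 8.75 in the other calves. Their means over 20 luminal genes were 6.81 and 8.13, the lowest of all calves, whose other values lay between 8.56 and 9.33. Elevated 5 had the highest mean of 21 skeletal muscle genes, 6.91. For the members, results that rest on these calves are given with and without them. Diet differences of other genes and of gene lists are given over all calves only. In bulk tissue such as this, fewer cells of a type and less RNA per cell cannot be told apart. Defining basal genes were measured: KRT5, a keratin of basal cells, had group means of 9.78 ± 0.97 (SD, elevated) and 9.58 ± 1.40 (restricted), whereas its partner keratin KRT14 stood under the array medians at 5.79 ± 0.67 and 6.19 ± 0.64.

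No measured member passed the test for a difference between the diets. Among the 8, at a limma adjusted p under 0.05 the count was 0, with a smallest adjusted p of 0.521, and at an unadjusted p under 0.05 it was also 0, where 10.3% of all probe sets had such a p. The groups overlapped at every member, while 1.28% of all probe sets had no overlap. Of the members 4 had higher and 4 had lower means in elevated calves. Their median log2 difference was -0.027, beside 0.0031 over all probe sets.

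TP63, the master regulator of basal epithelium, varied far more between calves than between diets. Its log2 level in elevated 1 to 6 was 8.03, 8.03, 8.03, 7.48, 6.86 and 8.24, and in restricted 1 to 5 it was 8.80, 6.06, 8.84, 7.17 and 8.53. The lowest calves were restricted 2, elevated 5 and restricted 4, and the 3 highest were the other restricted calves. The 3 elevated calves at 8.03 shared their value to 6 decimals. The means were 7.78 ± 0.51 (SD, n = 6) and 7.88 ± 1.23 (SD, n = 5), a log2 difference of -0.098 ± 0.49 (SE; limma adjusted p = 0.959). The 95% interval ran from -1.17 to 0.97, so it includes a level 2-fold lower in elevated calves as well as no difference. Within groups, the spread of TP63 (SD 0.90) was above that of 98.6% of probe sets, whose median was 0.22. The sign of its difference turned when elevated 5, restricted 1, restricted 3 or restricted 5 was left out, with values from 0.065 to 0.14.

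TRIM29, a member of the tripartite motif family that is abundant in basal layers of human and mouse epithelia, followed the same calves. It stood at 7.97, 8.24, 8.20, 7.55, 7.17 and 8.45 in elevated 1 to 6 and at 8.62, 6.37, 9.25, 7.91 and 8.74 in restricted 1 to 5. Restricted 2 was again lowest, and restricted 1, 3 and 5 were above all elevated calves. The means were 7.93 ± 0.48 (SD) and 8.18 ± 1.12, with a difference of -0.25 ± 0.45 (SE; limma adjusted p = 0.880). Without restricted 2 the difference was -0.70 ± 0.29, and without restricted 3 it was 0.018 ± 0.44.

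SFN encodes stratifin, the epithelial member of a family of adaptor proteins that bind phosphorylated partners. Elevated 1 to 6 gave 7.58, 6.98, 7.35, 6.44, 6.33 and 7.22, and restricted 1 to 5 gave 7.29, 5.96, 7.40, 6.34 and 7.19. The same 3 calves, with elevated 4, formed the low end of both groups. The difference was 0.15 ± 0.31 (SE; limma adjusted p = 0.899). It was -0.072 without restricted 2.

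OXTR, the oxytocin receptor through which milk ejection is triggered, had a mean of 5.54 over all calves, under the array medians. That was above the mean of 39.3% of probe sets, a range where RMA can compress differences, which was not tested here. Its level was 5.29, 5.17, 5.50, 5.55, 5.33 and 5.70 in elevated 1 to 6 and 6.03, 5.36, 5.63, 5.79 and 5.63 in restricted 1 to 5. Restricted 1 was highest and elevated 2 lowest, and 5 of 6 elevated calves lay below the restricted mean. The means were 5.42 ± 0.19 (SD) and 5.69 ± 0.25, a difference of -0.26 ± 0.13 (SE; limma adjusted p = 0.521). This was the smallest adjusted p among the members, and OXTR kept its negative sign under every alternative run, from -0.38 to -0.17.

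**Figure D1:**
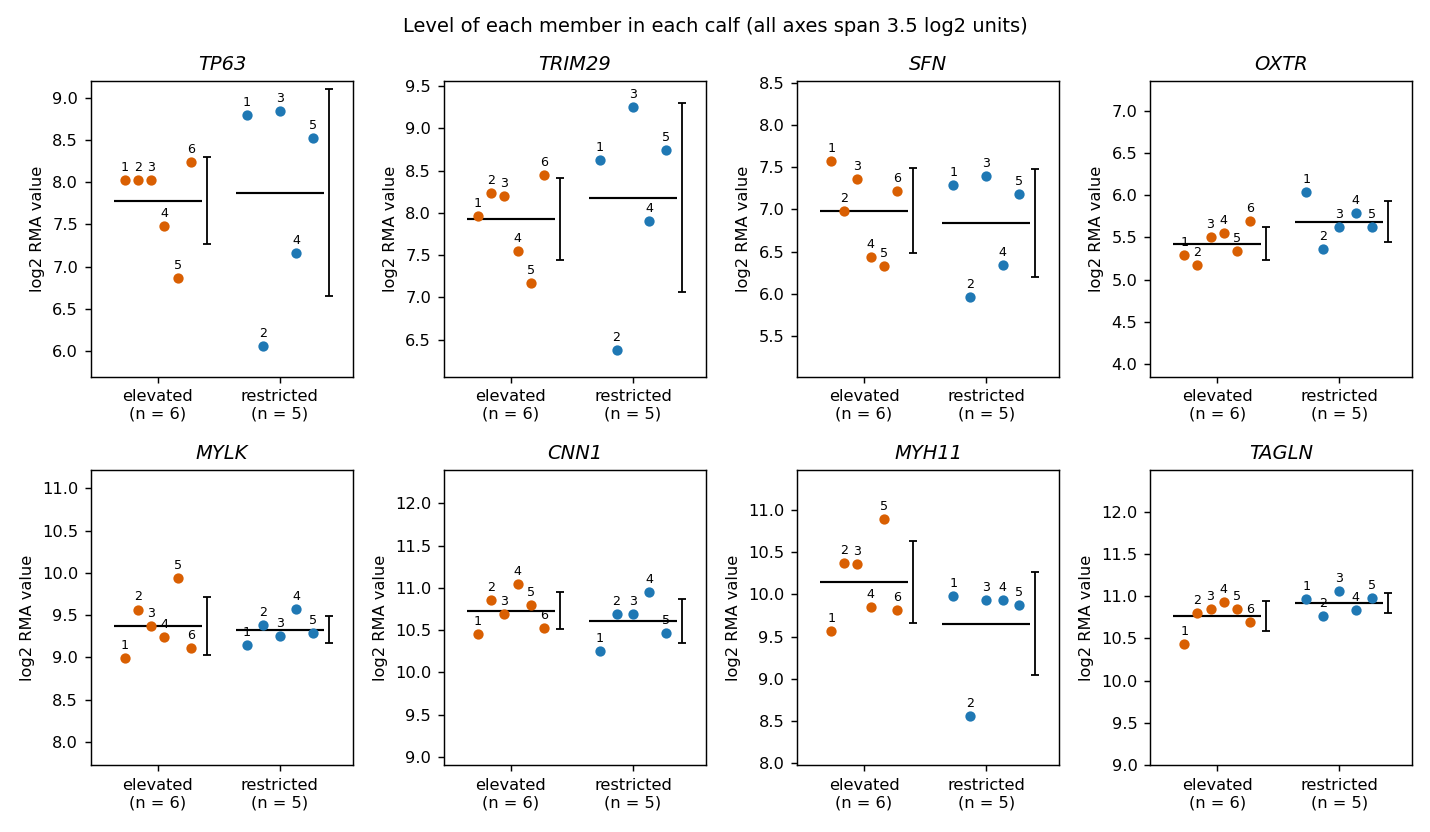
Log2 RMA value (y axis) of each of the 8 measured members in each calf, by diet (x axis); digits are calf numbers, horizontal lines are group means and vertical bars are SD. TP63, TRIM29 and SFN are low in restricted 2, restricted 4, elevated 4 and elevated 5, whereas MYLK, CNN1 and TAGLN span at most 0.95 over all calves. OXTR spans 0.86 and MYH11 spans 2.33.

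Among the contractile members, the within-group SD was 0.15 to 0.28 for TAGLN, CNN1 and MYLK and 0.55 for MYH11. Among the basal epithelial members it was 0.22 for OXTR, 0.57 for SFN, 0.83 for TRIM29 and 0.90 for TP63. TAGLN, which encodes transgelin, an actin-binding protein of smooth muscle, stood at 10.44, 10.80, 10.85, 10.93, 10.85 and 10.69 in elevated 1 to 6 and at 10.97, 10.76, 11.06, 10.83 and 10.98 in restricted 1 to 5. Elevated 1 was the lowest, and 3 restricted calves lay above all elevated calves. The difference was -0.16 ± 0.098 (SE; limma adjusted p = 0.610), and it stayed negative under every alternative run. It was -0.095 ± 0.082 without elevated 1 and -0.23 ± 0.096 with array weights (limma adjusted p = 0.387). The within-group SD of TAGLN was above that of 27.8% of probe sets.

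CNN1 encodes calponin, which binds actin and tunes the contraction of smooth muscle. Elevated 1 to 6 gave 10.45, 10.86, 10.69, 11.04, 10.80 and 10.53, and restricted 1 to 5 gave 10.25, 10.69, 10.69, 10.95 and 10.47. Elevated 4 and restricted 4 were highest in their groups, in contrast to their low TP63. The difference was 0.12 ± 0.14 (SE; limma adjusted p = 0.813). Over single left-out calves it ran from 0.027 without restricted 1 to 0.20 without restricted 4, and it was 0.053 without elevated 4.

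MYLK, the kinase that phosphorylates the myosin light chain, ran from 9.0 to 9.94 in elevated calves (median 9.31) and from 9.14 to 9.57 in restricted calves (median 9.29). Elevated 5 was highest. The difference was 0.044 ± 0.16 (SE; limma adjusted p = 0.945), with a 95% interval from -0.30 to 0.39, or 0.811-fold to 1.31-fold. It was -0.071 without elevated 5.

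MYH11, the heavy chain of smooth muscle myosin, had the largest measured difference among the members. Its level was 9.57, 10.37, 10.36, 9.85, 10.89 and 9.82 in elevated 1 to 6 and 9.98, 8.56, 9.93, 9.93 and 9.88 in restricted 1 to 5. Restricted 2 lay far below the other restricted calves, which spanned 9.88 to 9.98, and elevated 5 was highest of all. The means were 10.14 ± 0.49 (SD) and 9.66 ± 0.61, a difference of 0.49 ± 0.30 (SE; limma adjusted p = 0.608). Without restricted 2 it was 0.22 ± 0.22, and without restricted 2, restricted 4 and elevated 5 it was 0.066 ± 0.19.

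TP63 and TRIM29 had lower means in elevated calves, by nearly equal amounts, once the restricted calves rich in adipocyte markers were set aside, though neither passed the adjusted threshold. Without restricted 2 and restricted 4 the differences were -0.94 ± 0.28 (SE; limma adjusted p = 0.382) for TP63 and -0.94 ± 0.28 (limma adjusted p = 0.386) for TRIM29. In the same fit SFN differed by -0.31 ± 0.27, OXTR by -0.34 ± 0.14 and TAGLN by -0.24 ± 0.11. CNN1 differed by 0.26 ± 0.15, MYLK by 0.14 ± 0.19 and MYH11 by 0.22 ± 0.26, and no member passed the adjusted threshold. With elevated 5 left out as well, the difference was -0.76 ± 0.17 (limma adjusted p = 0.198) for TP63 and -0.79 ± 0.22 (adjusted p = 0.319) for TRIM29. The 2 restricted calves left out had the lowest TP63, TRIM29, SFN and TAGLN of their group, so leaving them out raises the restricted means of these 4 genes by construction. They had been picked out by their adipocyte markers in earlier results of these data.

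With all calves kept and the mean of the 20 luminal genes as a covariate, a fit chosen after seeing the data, TP63 differed by -0.93 ± 0.22 (SE; limma adjusted p = 0.220) and TRIM29 by -1.0 ± 0.22 (limma adjusted p = 0.199). OXTR differed by -0.38 ± 0.13 (adjusted p = 0.359) and SFN by -0.34 ± 0.19 (adjusted p = 0.554). The luminal mean was itself higher in elevated calves and ran with TP63 across calves, so that fit lowers the difference of TP63 by construction. The adipocyte mean as a covariate gave -1.05 ± 0.33 for TP63, -1.06 ± 0.35 for TRIM29 and -0.50 ± 0.17 for SFN (limma adjusted p = 0.397, 0.441 and 0.446), and it too differed with diet, being lower in elevated calves. Among the contractile members, CNN1 under the luminal covariate differed by 0.25 ± 0.14, MYLK by 0.15 ± 0.17, MYH11 by 0.20 ± 0.30 and TAGLN by -0.19 ± 0.11. The part of tissue makeup in these differences was not tested.

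**Figure D2:**
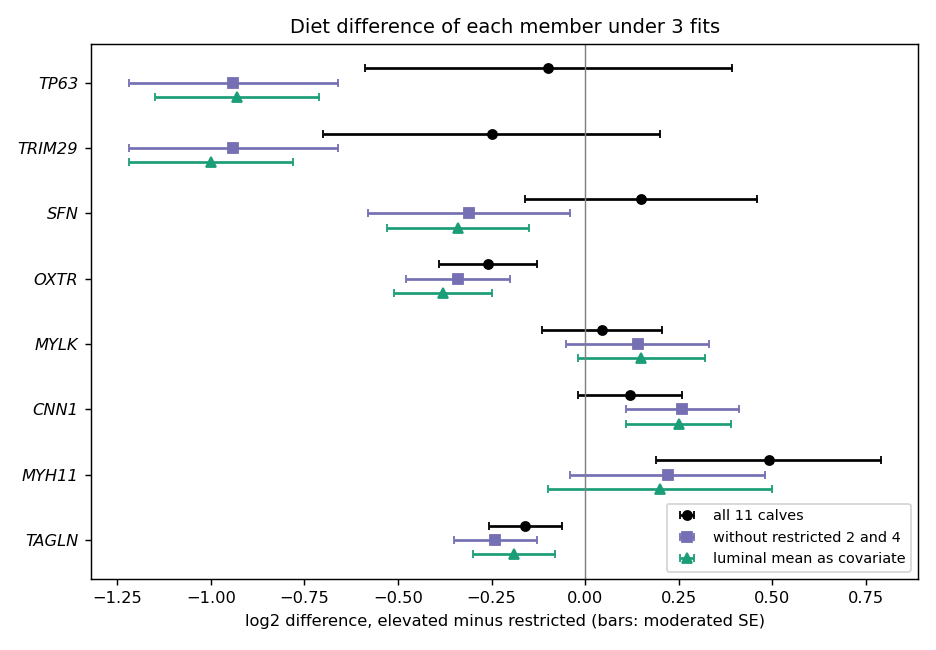
Log2 difference, elevated minus restricted (x axis), of each member (y axis) with its moderated SE in 3 fits: all 11 calves, without restricted 2 and restricted 4, and with the luminal mean as a covariate. TP63 and TRIM29 lie at -0.098 and -0.25 with all calves and between -0.93 and -1.0 in the other fits, and none passes the adjusted threshold.

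TP63 and TRIM29 moved together across calves by both measures of correlation used, and SFN passed with them by Pearson's r only. No relation between these 3 genes and a contractile member passed the test. Correlations were computed for 68 relations over 11 calves: 28 pairs of members, and each member against the means of 5 marker lists. By Pearson's r with a permutation test, 9 passed after adjustment over the 68, all of them with TP63, TRIM29 or SFN. By Spearman's rho, 3 passed. The share of all gene pairs that reach such r was not computed, so the count is not particular to these members. WARS2, picked as nearest to TRIM29 among all genes, reached r = 0.966 with it. TP63 and TRIM29 had r = 0.960 (permutation p = 2e-05, adjusted p = 0.000453) and rho = 0.973 (permutation p = 1e-05, the smallest possible; adjusted p = 0.00068). Without the 2 calves farthest from the median of TP63, elevated 5 and restricted 2, r was 0.879. TP63 and SFN had r = 0.896 and rho = 0.771 (adjusted permutation p = 0.00272 and 0.0787), and r = 0.776 without those calves. TRIM29 and SFN had r = 0.820 and rho = 0.682 (adjusted permutation p = 0.00901 and 0.138), and r = 0.705 without restricted 2 and restricted 3.

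The relation of OXTR to TP63 did not pass, with r = 0.424 and rho = 0.441 (adjusted permutation p = 0.365 by r). The 6 pairs of contractile members had a smallest adjusted permutation p of 0.276. Within that set, MYLK and MYH11 had r = 0.516 (rho = 0.560) over all calves, 0.876 without restricted 2, and 0.103 without elevated 1 and elevated 5, so the relation rests on single calves. CNN1 and TP63 had r = -0.528 and rho = -0.624 (permutation p = 0.0947 and 0.0445, adjusted p = 0.280 by r), with r = -0.753 without elevated 5 and restricted 2. That relation did not pass after adjustment.

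**Figure D3:**
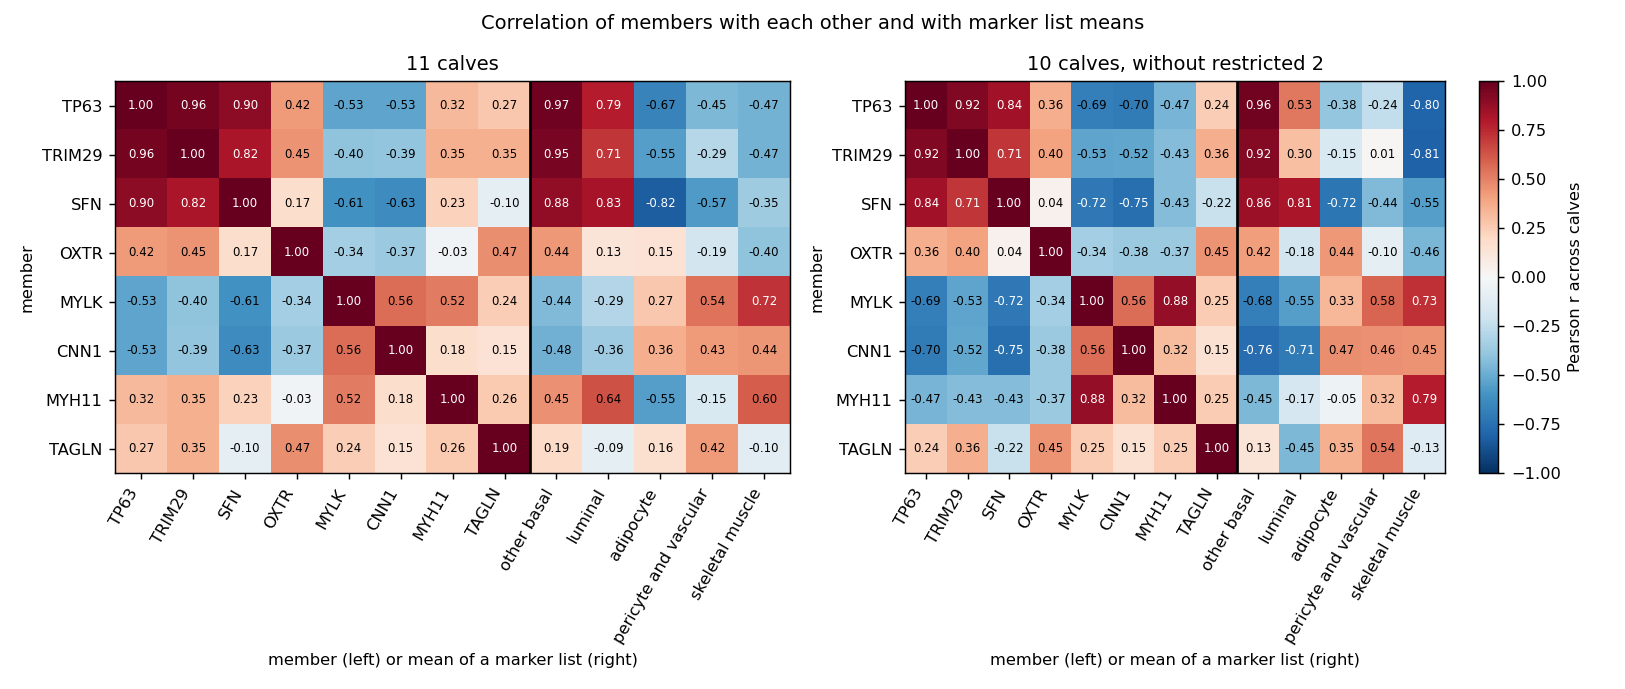
Pearson correlation over 11 calves (left) and over 10 calves without restricted 2 (right) between members, and between each member (rows) and the mean of 5 marker lists (columns after the line). TP63, TRIM29, SFN and the mean of the other basal genes form a block of positive values, and MYLK and CNN1 have negative values with it.

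The list of other basal genes carried the same pattern in its mean, but not in each gene. The integrin gene ITGB4 was highest in elevated 5 (9.87) and lowest in restricted 2 (8.29). KRT5 was low in both, at 8.08 and 7.33. The list mean over 25 genes correlated with TP63 at r = 0.969 and rho = 0.973 (adjusted permutation p = 0.000453 by r), with TRIM29 at r = 0.952 and rho = 0.936, and with SFN at r = 0.883 and rho = 0.818. Without the 2 farthest calves these r were 0.948, 0.912 and 0.802. Luminal genes ran with TP63 less tightly, at r = 0.785 and rho = 0.596 (adjusted permutation p = 0.0405 and 0.195). That r was 0.572 without elevated 5 and restricted 2. SFN followed the luminal mean at r = 0.826 and rho = 0.809 (adjusted permutation p = 0.0017 and 0.0552), and its r was 0.875 without those calves. It ran against the adipocyte mean at r = -0.825 and rho = -0.655 (adjusted permutation p = 0.00505 and 0.153; -0.785 without those calves).

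**Figure D4:**
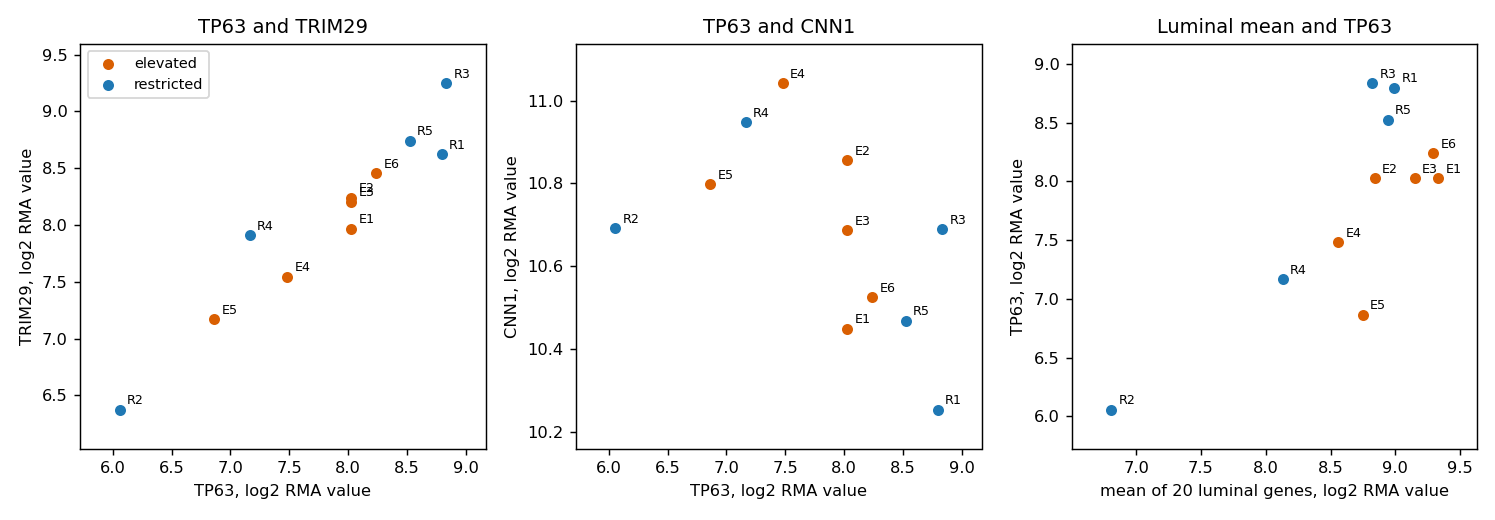
Each point is 1 calf (E, elevated; R, restricted; digits are calf numbers), with log2 RMA values on all axes: TRIM29 against TP63, CNN1 against TP63, and TP63 against the mean of 20 luminal genes. TRIM29 rises with TP63 from restricted 2 (6.06 and 6.37) to restricted 3 (8.84 and 9.25); restricted 1, 3 and 5 have more TP63 than elevated calves of a similar luminal mean.

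Genes with profiles like those of the members were picked by Pearson's r over the 11 calves, as a description. For the mean of the 4 basal epithelial members they were CLCA2 (r = 0.973), the polo-like kinase gene PLK2 (0.973), CCDC68 (0.965), CDH3, which encodes the cadherin of basal epithelial cells (0.965), CNN2, a calponin that is not specific to muscle (0.964), and KCNN4, a calcium-activated potassium channel (0.962). Without restricted 2 these r lay between 0.935 and 0.973. For the mean of the 4 measured contractile members they were PMP22 (r = 0.916), SMARCA2 (0.913), the microRNA gene MIR488 (0.911), HEPH (0.910), TOX (0.907) and LRIG2 (0.906). The 2 genes nearest to TP63 were AGRN, which encodes the basement membrane proteoglycan agrin (r = 0.970), and PLK2 (0.964). WARS2 (0.966) and PTPRZ1 (0.965) were nearest to TRIM29, and LAD1, which encodes a protein of basement membrane anchoring filaments (0.963), and ATG10 (0.958) to SFN. MYLK lay nearest to FHL1, a LIM protein of muscle (0.959), and SEMA3B (0.952). CNN1 lay nearest to ADGRB3 (0.927) and HEATR5A (0.920), and TAGLN to PRKD1 (0.939) and TCEA2 (0.937). MYH11 lay nearest to MYL9, the regulatory light chain of smooth muscle myosin (0.939), and EPG5 (0.936), and these r were 0.868 and 0.864 without restricted 2.

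Among genes that act with the members, none passed the test between diets either. Over 4 lists of other basal genes, contractile apparatus, contraction signalling and transcriptional regulators of the contractile programme, 84 genes were measured, of which 45 had higher and 39 lower means in elevated calves. At the adjusted limma threshold 0 passed (smallest adjusted p = 0.353), and 9 had an unadjusted p under 0.05, 4 higher and 5 lower, where 10.3% of all probe sets did. Their median difference was 0.017.

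Among the 25 other basal genes, 11 were higher and 14 lower (median -0.051). SNAI2, a transcription factor of basal cells, had group means of 11.06 ± 0.18 (SD, elevated) and 11.43 ± 0.21 (restricted), a difference of -0.36 ± 0.12 (SE; limma adjusted p = 0.353). The hemidesmosome integrin gene ITGB4 differed in the other direction, by 0.58 ± 0.19. MME, the membrane peptidase also used as a myoepithelial marker in human tissue, differed by -0.51 ± 0.19, and the desmosomal cadherin gene DSC3 by 1.07 ± 0.43. DSC3 stood at 4.97 in restricted 2 and at 6.42 to 7.75 in the other restricted calves. SNAI2 and MME did not share that drop, at 11.44 and 10.50 in restricted 2, the calf with the lowest TP63. Genes of this list thus had differences of both signs, and none passed the adjusted threshold.

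In the contractile apparatus 16 of 25 genes were higher (median 0.044). The non-muscle myosin heavy chains had opposite signs, MYH10 at -0.33 ± 0.12 (SE) and MYH9 at 0.19 ± 0.082, with limma adjusted p of 0.399 and 0.472. CALD1, which encodes the actin-binding protein caldesmon, differed by -0.17 ± 0.075, and the myosin light chain gene MYL6 by 0.21 ± 0.10. In contraction signalling 11 of 21 genes were higher (median 0.011). OXT, the gene of oxytocin itself, lay at 4.46 ± 0.060 (SD) and 4.62 ± 0.078, far under the array medians. ITPR1, a calcium release channel, differed by 0.50 ± 0.22 (limma adjusted p = 0.474), and PLCB1, a phospholipase that acts below such receptors, by -0.15 ± 0.072. Of 13 regulators, among them SRF and its myocardin-family coactivators, 7 were higher (median 0.014). The smallest p there belonged to ELK1, at -0.13 ± 0.068, and KLF4 differed by 0.53 ± 0.33, with 8.12 in elevated 5 and at most 6.79 in the other elevated calves.

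Close relatives of the members showed no change past the threshold either. Cytoplasmic actins, encoded by ACTB and ACTG1, differed by 0.018 ± 0.060 (SE) and 0.025 ± 0.061. The striated muscle actin genes had larger differences, ACTA1 of skeletal muscle at 1.22 ± 0.42 (limma adjusted p = 0.377) and ACTC1 of heart at 0.15 ± 0.12. TAGLN2 and TAGLN3 went in opposite directions to each other, at 0.17 ± 0.088 and -1.07 ± 0.46 (limma adjusted p = 0.551 and 0.459), with TAGLN3 spanning 5.31 to 8.34 in elevated calves. CNN2 and CNN3 differed by -0.15 and -0.22. The family to which stratifin belongs had 6 other measured genes, with differences from -0.20 for YWHAG to 0.071 for YWHAQ. TP73, the relative of TP63, stood at 5.04 ± 0.17 and 5.09 ± 0.21. The vasopressin receptor genes AVPR1A, AVPR1B and AVPR2 differed by at most 0.075.

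Markers of other cells that share the members' genes were read beside them. Pericyte and vascular smooth muscle genes were lower for 12 of 17, with a median of -0.16, and their mean level spanned 7.29 to 7.66 in elevated and 7.35 to 7.73 in restricted calves. PDGFRB, a receptor of pericytes, differed by -0.35 ± 0.11 (SE), HEYL, a Notch target, by -0.52 ± 0.16, NDUFA4L2 by -0.83 ± 0.26 and ANGPT1 by -0.70 ± 0.23 (limma adjusted p from 0.349 to 0.355). Others of the list went the other way, such as the Notch receptor gene NOTCH3 at 0.24 ± 0.097 and PLN, which encodes the calcium pump regulator phospholamban, at 0.88 ± 0.45 (limma adjusted p = 0.430 and 0.537; both named after their values were seen). Skeletal muscle genes were higher for 20 of 21 (median 0.53), with means of 5.46 to 6.91 and 5.22 to 5.74, and MYL2 differed by 0.75 ± 0.21. MYLK and MYH11 were highest in elevated 5, the calf with the highest skeletal muscle mean. MYLK correlated with that mean at r = 0.720 and rho = 0.518 (adjusted permutation p = 0.119 by r), and at r = 0.392 without elevated 1 and elevated 5. For MYH11 the values were r = 0.602 and rho = 0.360 (adjusted permutation p = 0.276 by r). Its r was 0.787 without restricted 2 and 0.448 without elevated 5 and restricted 2.

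Keratinocyte genes, which would accompany TP63, TRIM29 and SFN from skin, had list means of 4.36 to 4.58 in elevated and 4.33 to 4.86 in restricted calves, all below the array medians. The highest means were in restricted 3 (4.86), restricted 1 (4.66) and restricted 5 (4.64), the calves with the highest TP63. Restricted 4 (4.33) and elevated 5 (4.36), both low in TP63, had the lowest means, while restricted 2 stood at 4.49. No correlation of the members with this list was computed. Of 10 such genes 3 were higher. SBSN differed by -0.54 ± 0.17 (SE; limma adjusted p = 0.337) and the transglutaminase gene TGM3 by -0.65 ± 0.30. Luminal genes were higher for 17 of 20 (median 0.80), PROM1 by 0.64 ± 0.19, and adipocyte genes lower for 18 of 19 (median -1.04), LEP by -1.65 ± 0.56. None of these genes passed the adjusted threshold. Fibroblast genes split into 6 higher and 6 lower. The part of these cell types in the members' values was not tested.

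**Figure D5:**
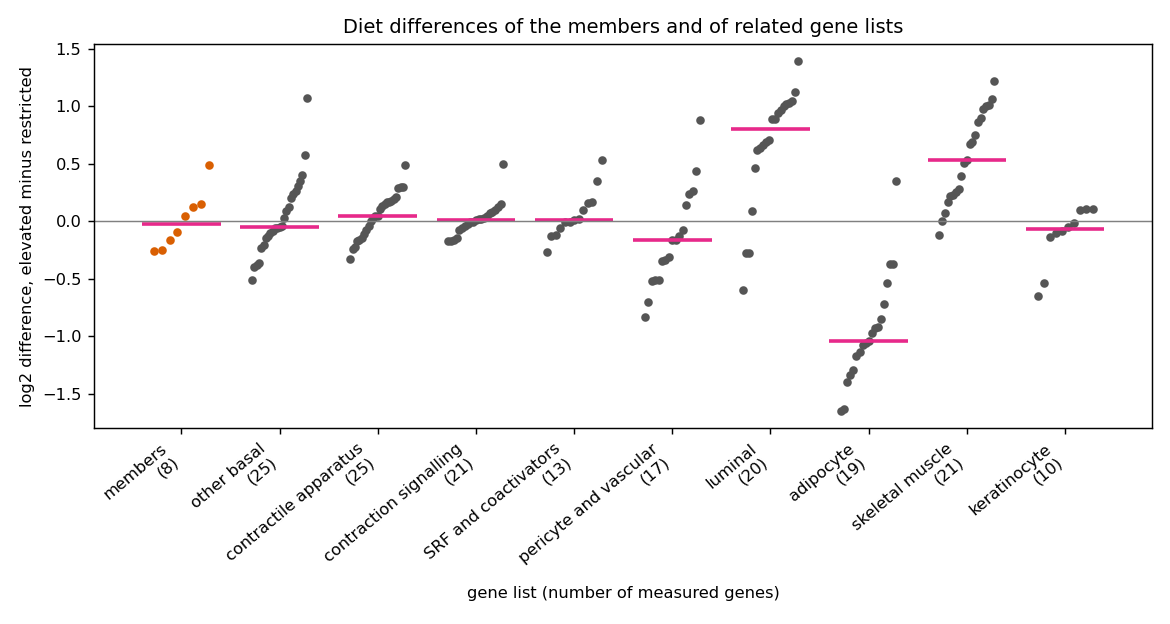
Log2 difference, elevated minus restricted (y axis), of each measured gene (points) in the member set and in 9 related gene lists (x axis), with the median as a line. The members and the 4 lists that act with them centre between -0.051 and 0.044, while luminal genes centre at 0.80, skeletal muscle genes at 0.53 and adipocyte genes at -1.04.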

How the data were processed

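Biotin-labelled RNA (100 ng, integrity number above 7.0) from 11 calves was hybridised to 1-colour arrays, per the labels' protocols. The authors deposited log2 values per probe set; per the submitters' processing notes they are RMA values, with no version or settings stated there. That the scale is log2 was read from the values. Because RMA gives arrays nearly equal distributions, a shift in all RNA of a cell would not show. Precision is limited by how many arrays there are.

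Probe sets were named by the platform annotation: 18790 had 1 symbol, 385 several and 7598 none here. Symbols of all 8 measured members matched their gene numbers in the ARS-UCD2.0 gene table. No coordinates or sequences are given. A gene with several probe sets was read from the one with the highest mean. The 5 contractile members of the design are 4 here, because ACTA2 has no probe set of its own.

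Elevated was compared with restricted in limma 3.58.1 (R 4.3.3; lmFit, eBayes) on the deposited values, with no filter or covariate, and with p-values adjusted by Benjamini-Hochberg across the whole table (threshold 0.05). Intervals are at 95%. The fit was tested on simulated data. Correlations used 100000 resamples, two-sided. The labels describe the arrays as separate heifers, so the spread is between animals. Members and gene lists were chosen with earlier results of these data known. Besides the members, genes are named as the up to 4 of smallest p in a list, as relatives of members, or by likeness; KRT5 and KRT14 were added as defining markers. Likeness to OXTR is not reported here. Alternatives were quantile normalisation, median centring, filters, variance models, array weights, the mean over probe sets, the replicate block, marker covariates, left-out calves and a threshold of 0.10.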

Additional observations from a re-analysis of the deposited data

Results flagged for a closer look

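Values far from the rest of their group were looked for among the members and the other genes named, in 198 sets of 5 or 6 calves, by the gap to the nearest calf relative to the range. Chance flags about 1 in 20 sets, and 18 were found. Among the members there was 1 in 16 sets: MYH11 in restricted 2, at 8.56 against 9.88 to 9.98 in the other restricted calves.

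The same calf stood low in MYL9 (10.66), EPG5 (7.45) and YWHAB (11.33). MYL9 and EPG5 had been named for their likeness to MYH11 over all calves, so their flags are not independent of the MYH11 flag. Restricted 3 stood high in HEYL (8.89), YWHAE (11.96), MYLK2 (4.35) and TP73 (5.47). Restricted 4 was high in ACTN2 (5.11) and low in TAGLN3 (8.01), and restricted 5 was high in AVPR1B (5.07). Elevated 4 was high in SNAI2 (11.40) and low in TFAP2B (8.40). Elevated 5 was high in MYL6 (10.85), KLF4 (8.12), MYLK2 (4.50) and MYLK4 (4.56) and low in CNN2 (9.29).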

How the results depend on the processing

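The count of members past the adjusted threshold was 0 under all alternatives run, the left-out calves included. Of 184 recomputed member differences, 171 kept their sign and 13 reversed, none of them past the threshold. SFN reversed to -0.50 with the adipocyte covariate, -0.34 with the luminal covariate (added after seeing the data), -0.31 without restricted 2 and restricted 4, and -0.18 without elevated 5 as well. MYLK reversed to -0.028 with array weights. Over single left-out calves, TP63 ran from -0.55 to 0.14, TRIM29 from -0.70 to 0.018, SFN from -0.072 to 0.29 and MYLK from -0.071 to 0.12. OXTR, TAGLN, CNN1 and MYH11 kept their sign throughout. The median of the basal epithelial members was -0.17 (from -0.45 to 0.080 over left-out calves) and that of the measured contractile members 0.080 (from 0.013 to 0.15). With restricted 2 and restricted 4 left out these were -0.64 and 0.18. The cause of these shifts was not tested.

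The count of probe sets past the threshold was 2. It was 1 with only single-symbol probe sets or with a gene's probe sets averaged, 4 with array weights, 0 with the adipocyte covariate, 9 with the luminal covariate, 25 without restricted 2 and restricted 4, 15 without elevated 5 as well, and 0 to 12 over single left-out calves.

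Calves of both diets share the numbers 1 to 5, but the labels do not say that a number pairs them. Deviations of same-numbered calves correlated between -0.147 and 0.211, and 1 of 5 elevated calves correlated best with its own number, so the numbers were not taken as pairs. With the replicate block 0 probe sets and 0 members passed, and the medians were -0.25 and 0.13.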
